A study of Homo sapiens with 17 samples.

Results

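The HOX cluster genes were examined in SF8628 DMG cells treated with the BET bromodomain inhibitor AZD5153. Members were the genes whose symbol, matched from the Ensembl identifier, reads HOX followed by a cluster letter A to D and a number, and 39 of the 60664 genes of the expression table fulfilled this rule. SF8628 is an established H3.3 K27M-mutant cell line of diffuse midline glioma (DMG), grown as a monolayer in serum-containing medium. RNA-Seq libraries were made from cells given the solvent DMSO for 24 hours, DMSO for 48 hours, 1 μM AZD5153 for 24 hours or 1 μM AZD5153 for 48 hours, and each of these 4 groups had 3 replicates. All groups were of this single line, and nothing in the labels states whether replicates were separate cultures, so p-values measure the spread between these libraries, which may be technical. AZD5153 is a small molecule that binds the bromodomains of BET proteins, which read acetylated histones at active genes.

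HOX genes encode homeodomain transcription factors that set position along the body axis. They lie in 4 clusters (HOXA to HOXD), and within a cluster the low-numbered genes are used early and in anterior tissue such as the hindbrain while the high-numbered genes are used late and in posterior tissue. Polycomb proteins keep unused clusters silent and Trithorax proteins keep used genes active, and HOX proteins bind DNA together with cofactors of the TALE class (PBX, MEIS and PKNOX proteins).

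The libraries held 15759148 to 27335220 reads assigned to genes (median 20737337). Values are normalized counts, that is, reads divided by the size factor of the library, and 3 reads correspond to 2.14 to 4.02 normalized counts. A check of the line against lists of markers found 8 of 12 glial progenitor genes whose mean reached 10 normalized counts. They were *VIM* (18049), *CSPG4* (1581), *NES* (1336), *SOX2* (191), *BCAN* (66.5), *S100B* (64.4), *GFAP* (35) and *PTPRZ1* (14.2). *PDGFRA* (2.66) and *SOX10* (1.01) were under this mean. *OLIG1* and *OLIG2*, transcription factors of oligodendrocyte progenitors, had 0 reads in all 12 libraries. All 6 mesenchymal genes of the lists were read, with means from 10.6 (*DCN*) to 35253 (*COL1A1*). The library of replicate 2 of AZD5153 at 48 hours stood apart. In it, 39 genes had at least 5 reads while the other 11 libraries had none, against 1 to 18 such genes in each other library (genes of the Y chromosome and *XIST* were left out). They were led by *TBX3* with 51 reads, the epithelial cadherin gene *CDH1* with 41 and the epithelial regulator *GRHL2* with 40, which were named after their values were seen, and 7 of the 39 were HOX genes. Replicate 1 of DMSO at 24 hours stood apart by its reads over all genes, where chi-square over its degrees of freedom was 16.8 and 25.6 against the other 2 replicates of its group and 2.12 to 5.21 in the other 10 replicate pairs. The log2 fold changes of *HOXB2*, *HOXB3* and *HOXB-AS1* in which these libraries enter are given with and without them. Of 84 tested genes of the lists used below, 70 were called at 24 hours, of which 68 stayed called in the same direction in limma without replicate 1 of DMSO (*CBX8* and *RXRB* did not), and 63 were called at 48 hours, of which 61 stayed so without replicate 2 of AZD5153 (*PKNOX1* and *SOX2* did not). Beside these counts, 33.9% of all tested genes were called higher and 34.6% lower at 24 hours, and 33.1% and 33.9% at 48 hours.

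Only 2 of the 39 HOX genes were read at all, taken as 10 or more normalized counts in the mean of all 12 libraries. They were *HOXB2* and *HOXB3*, adjacent genes of the anterior part of the HOXB cluster that are known for their use in the hindbrain. They made up 5.13% of the members, beside 64% of the 19942 protein-coding genes and 25.7% of all genes of the table that reached this mean. By cluster, the count was 0 of 11 in HOXA, 2 of 10 in HOXB, 0 of 9 in HOXC and 0 of 9 in HOXD. By position, 1 of 2 genes at position 2 and 1 of 3 at position 3 were read, and none at any other position. With any 1 library left out, 2 genes still reached the mean.

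**Figure D1:**
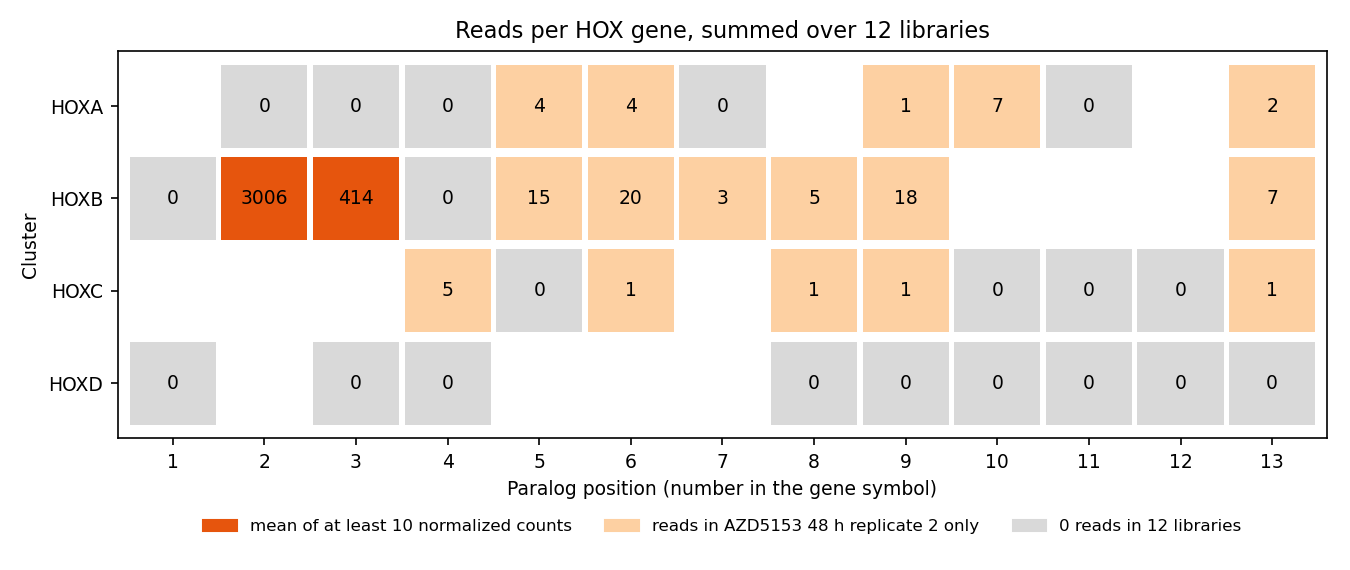
Reads of each HOX gene summed over the 12 libraries, with the clusters as rows and the paralog positions as columns; blank places hold no gene or one not reported here. *HOXB2* (3006 reads) and *HOXB3* (414 reads) were the members whose mean reached 10 normalized counts, 16 genes had reads in replicate 2 of AZD5153 at 48 hours only, and the grey places had 0 reads.

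The remaining 37 members were near or at 0. No read in any of the 12 libraries was counted for 21 of them, namely 6 HOXA genes, *HOXB1* and *HOXB4*, the 4 genes *HOXC5*, *HOXC10*, *HOXC11* and *HOXC12*, and all 9 HOXD genes. Beside this, 16.6% of protein-coding genes had 0 reads in all 12 libraries. A count of 0 over 12 libraries allows up to 3 reads, which per kilobase of exon is 0.0566 to 0.215 normalized counts for these genes, and this covers counting error only. At a mean of 96 normalized counts per kilobase, *HOXB2* was at least 447-fold higher than the highest of these limits, and *HOXB3*, at 4.45 per kilobase, at least 20.7-fold higher. Reads that fit 2 overlapping genes may not have been assigned, but 20 of the 21 genes shared under 50% of their exon bases with another gene of the same strand and 13 shared none. The exception was *HOXC5*, with 67.3% shared, whose 0 is uncertain for this reason. *HOXA7* shared 62.5% and *HOXD1* 60.1% of their exon bases with genes of the opposite strand, so their 0 is uncertain too if counting did not use strand.

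The other 16 members had reads in replicate 2 of AZD5153 at 48 hours and in no other library. They had 1 to 20 reads each, or 1.1 to 21.7 normalized counts, and 95 reads in all, of which 68 were on HOXB, 18 on HOXA, 9 on HOXC and 0 on HOXD genes. The counts were highest for *HOXB6* (20 reads), *HOXB9* (18) and *HOXB5* (15), followed by *HOXA10* and *HOXB13* (7 each). All 16 lay at positions 4 to 13. The antisense gene *HOXB-AS3* of the HOXB cluster showed the same distribution, with 9 reads in this library and 0 in the other 11. The 2 further replicates of the group had 0 reads on the 16 genes, as did the 9 libraries of the other groups. A change with AZD5153 was therefore not seen for these members, and whether these reads came from the cells of this library was not tested.

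**Figure D2:**
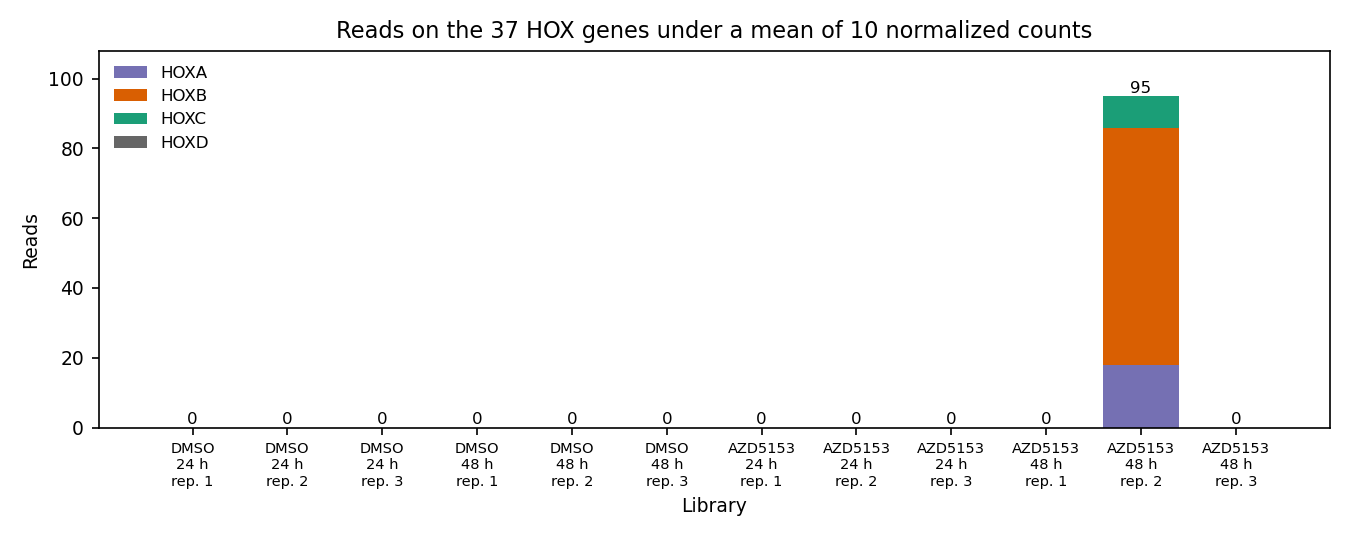
Reads on the 37 HOX genes under a mean of 10 normalized counts, stacked by cluster, in each of the 12 libraries. All 95 reads fell in replicate 2 of AZD5153 at 48 hours.

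*HOXB2* was lower with AZD5153 at both times. The gene (ENSG00000173917) lies on the minus strand of chromosome 17 at chr17:48540894-48545109 (GRCh38), with 2456 exon bases of which 3.5% are also exon of *HOXB-AS1* on the opposite strand. In DMSO the 3 replicates had 308.8, 376.5 and 342.3 normalized counts at 24 hours and 354.9, 346.6 and 381.2 at 48 hours. In AZD5153 they had 150.2, 114.7 and 102.8 at 24 hours and 111.2, 118.4 and 121.5 at 48 hours. Every AZD5153 library was below every DMSO library of either time. The mean was 343 ± 33.8 (SD, n = 3) in DMSO and 123 ± 24.6 (SD, n = 3) in AZD5153 at 24 hours, and 361 ± 18 (SD, n = 3) and 117 ± 5.26 (SD, n = 3) at 48 hours. In a limma fit of log2(normalized count + 1) across 15599 genes, with Benjamini-Hochberg adjustment, the log2 fold change was -1.49 at 24 hours (SE 0.135, 95% confidence interval -1.78 to -1.20, adjusted p = 7.7e-08), which is 2.81-fold lower. At 48 hours it was -1.62 (SE 0.135, 95% confidence interval -1.90 to -1.33, adjusted p = 2.9e-08 in limma), or 3.06-fold lower, and -1.63 without replicate 2 of AZD5153. Without replicate 1 of DMSO the value at 24 hours was -1.56 (adjusted p = 4e-10 in limma). Of all genes tested, 9.55% had a log2 fold change this low or lower at 24 hours and 8.85% at 48 hours. Since these are bulk samples, fewer cells that use the gene and less RNA per cell cannot be told apart.

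*HOXB3* was also lower with AZD5153, from a lower level and with a wider spread. The gene (ENSG00000120093, chr17:48548870-48604912, minus strand) has 7425 exon bases, 6.4% of them shared with *HOXB4* or *HOXB6* on the same strand and 5.3% with *HOXB-AS1* or *HOXB-AS3* on the opposite strand. In DMSO it had 34.9, 29.9 and 21.4 normalized counts at 24 hours and 62.2, 55.0 and 58.3 at 48 hours. In AZD5153 it had 12.1, 20.5 and 11 at 24 hours and 16.4, 45.6 and 29.1 at 48 hours. Within each time, the AZD5153 libraries were all below the DMSO libraries, at 24 hours by a narrow margin (20.5 against 21.4). Replicate 2 was the highest of the AZD5153 libraries at 48 hours. The log2 fold change was -0.96 at 24 hours (SE 0.352, 95% confidence interval -1.71 to -0.21, adjusted p = 0.024 in limma), 1.95-fold lower, and -1.03 at 48 hours (SE 0.352, 95% confidence interval -1.78 to -0.29, adjusted p = 0.017 in limma), 2.05-fold lower. Without replicate 2 of AZD5153 at 48 hours the latter was -1.38 (adjusted p = 0.0036 in limma).

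The call of *HOXB3* rested on single libraries and on settings of the processing. At 24 hours it did not pass the threshold of 0.05 in limma without replicate 1 of DMSO (log2 fold change -0.81, adjusted p = 0.063), without replicate 2 of DMSO (adjusted p = 0.06) or without replicate 1 or 3 of AZD5153 (adjusted p = 0.071 and 0.085). At 48 hours it did not pass in limma without replicate 1 of DMSO (adjusted p = 0.0503) or without replicate 1 of AZD5153 (log2 fold change -0.67, adjusted p = 0.10). It also failed at 48 hours under quantile normalization (log2 fold change -0.66, adjusted p = 0.11 in limma), and at 24 hours with no minimum mean. The call of *HOXB2* passed in each of these fits.

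Thus 2 of 2 tested members were lower at each time, where 34.6% of all tested genes were called lower at 24 hours, 33.9% at 48 hours and 27.1% at both. Their groups did not overlap, as was the case in the lower direction for 34.8% of genes at 24 hours and 37.2% at 48 hours. With 2 genes, which are neighbours in 1 cluster, the count says little beyond the values of each gene.

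**Figure D3:**
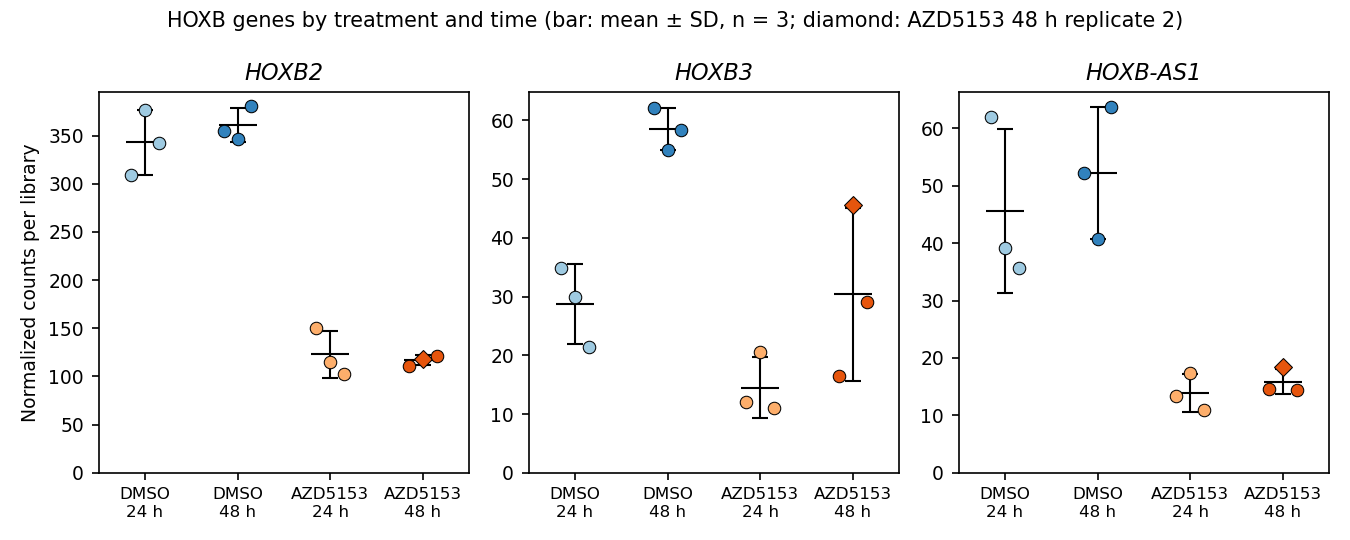
Normalized counts of *HOXB2*, *HOXB3* and the antisense gene *HOXB-AS1* in each library by group, with the mean and SD (n = 3) as bars and replicate 2 of AZD5153 at 48 hours as a diamond. For all 3 genes the AZD5153 libraries lie below the DMSO libraries of the same time, and *HOXB3* alone among them was called between 24 and 48 hours in DMSO.

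The AZD5153 effect on these genes was not found to differ between times. The difference of the log2 fold changes, 48 minus 24 hours, was -0.13 for *HOXB2* (95% confidence interval -0.53 to 0.28, adjusted p = 0.68 in limma) and -0.07 for *HOXB3* (95% confidence interval -1.13 to 0.99, adjusted p = 0.93 in limma). Thus 0 of 2 members were called in limma, 0 at an unadjusted p under 0.05 and 0 by the edgeR quasi-likelihood test or DESeq2, where 24.5% of all genes were called in limma. Without replicate 1 of DMSO at 24 hours the differences were -0.05 and -0.22 (adjusted p = 0.87 and 0.79 in limma), and without replicate 2 of AZD5153 at 48 hours -0.14 and -0.42 (adjusted p = 0.69 and 0.58 in limma), for *HOXB2* and *HOXB3* in this order. The interval of *HOXB3* holds differences as large as its effect at 24 hours (-0.96).

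From 24 to 48 hours in DMSO, *HOXB3* was called higher and *HOXB2* was not called. *HOXB3* was 2.04-fold higher in DMSO at 48 than at 24 hours, from 28.7 ± 6.85 (SD, n = 3) to 58.5 ± 3.6 (SD, n = 3) normalized counts, with a log2 fold change of 1.03 (SE 0.352, 95% confidence interval 0.28 to 1.77, adjusted p = 0.033 in limma) and no overlap. Of all genes, 16.4% were called higher in this comparison and 22.4% did not overlap in this direction. The call was lost in limma without any 1 of the 3 DMSO libraries at 48 hours or without replicate 2 or 3 at 24 hours, with adjusted p = 0.093, 0.068, 0.078, 0.059 and 0.10 in this order. It was also lost under quantile normalization (adjusted p = 0.099). With replicate 1 at 24 hours left out it stood at 1.18 (adjusted p = 0.017 in limma). *HOXB2* had a log2 fold change of 0.08 over the same interval (95% confidence interval -0.21 to 0.37, adjusted p = 0.69 in limma), and of 0.006 with the same library left out (adjusted p = 0.98). Whether the time courses of *HOXB2* and *HOXB3* differ was not tested.

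In AZD5153 the log2 fold change from 24 to 48 hours was 0.95 for *HOXB3* (95% confidence interval 0.20 to 1.70, adjusted p = 0.053 in limma), with a mean of 14.5 ± 5.19 (SD, n = 3) at 24 hours and 30.4 ± 14.7 (SD, n = 3) at 48 hours. Replicate 1 at 48 hours (16.4) lay within the range of the 24-hour libraries. Without replicate 2 at 48 hours the value was 0.61 (adjusted p = 0.24 in limma). The value passed the threshold with DESeq2 (adjusted p = 0.043), and in limma without replicate 1 at 48 hours (1.32, adjusted p = 0.011) or replicate 2 at 24 hours (1.21, adjusted p = 0.03) of AZD5153, or replicate 1 or 3 of DMSO at 24 hours (adjusted p = 0.029 and 0.045). *HOXB2* was at -0.05 (95% confidence interval -0.34 to 0.24, adjusted p = 0.83 in limma), and at -0.06 without replicate 2 at 48 hours (adjusted p = 0.83). In this comparison 0 of 2 members were called in limma and 0 in edgeR, 1 at an unadjusted p under 0.05 and 1 in DESeq2, where 29.7% of all genes were called in limma. The DMSO and AZD5153 libraries of each time enter several of these comparisons, so the values given side by side are not independent.

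The order of the 2 members was the same in all libraries. The ratio of *HOXB2* to *HOXB3* in normalized counts per kilobase ran from 7.85 to 48.4 over the 12 libraries. It was 26.7 to 48.4 in DMSO at 24 hours and 17.3 to 19.8 in DMSO at 48 hours, and lowest in replicate 2 of AZD5153 at 48 hours. Per kilobase, the level of *HOXB2* was above that of 54.9% of the 15577 tested genes with a known length, and that of *HOXB3* above 5.98%.

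Of the further genes listed within the clusters, *HOXB-AS1* alone was read, and it moved in the same direction as its neighbours. Its mean alone reached 10 normalized counts among 20 genes of this list found in the table, of which 18 are long non-coding RNA genes and 2 (*PRAC1* and *PRAC2*) are protein-coding. In all 12 libraries 14 of the 20 had 0 reads, among them *HOTTIP* and both protein-coding genes. *HOTAIR* had 1 read in all, in replicate 2 of AZD5153 at 48 hours. *HOXB-AS1* (ENSG00000230148, chr17:48543551-48551250, plus strand) runs antisense to the start of *HOXB2* and shares 29.6% of its 1559 exon bases with exons of *HOXB2* and *HOXB3*. How strand was treated in the counting is not given in the sources used here, and without strand, reads of the shared part cannot be told apart from reads of *HOXB2* and *HOXB3*. The start window of the gene is shown because *HOXB-AS1*, *HOXB2* and *HOXB3* were lower together, beside that of the unread *HOXB1*, the first gene of the same cluster. Both are from RefSeq (GRCh38.p14), cover 250 bases before to 50 bases after the start and are written 5′ to 3′ on the strand of the gene, and capitals mark matches to TGATNNAT, a motif bound by PBX and HOX proteins together, searched on both strands. The start is that of RefSeq, which for *HOXB-AS1* lies inside the span given above from GENCODE.
HOXB-AS1, chr17:48544101-48544400, plus strand: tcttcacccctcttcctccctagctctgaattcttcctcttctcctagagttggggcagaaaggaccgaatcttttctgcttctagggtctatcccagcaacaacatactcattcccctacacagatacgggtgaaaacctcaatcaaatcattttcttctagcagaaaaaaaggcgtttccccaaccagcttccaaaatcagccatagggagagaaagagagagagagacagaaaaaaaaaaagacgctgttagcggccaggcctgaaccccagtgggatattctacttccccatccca
HOXB1, chr17:48530962-48531261, minus strand: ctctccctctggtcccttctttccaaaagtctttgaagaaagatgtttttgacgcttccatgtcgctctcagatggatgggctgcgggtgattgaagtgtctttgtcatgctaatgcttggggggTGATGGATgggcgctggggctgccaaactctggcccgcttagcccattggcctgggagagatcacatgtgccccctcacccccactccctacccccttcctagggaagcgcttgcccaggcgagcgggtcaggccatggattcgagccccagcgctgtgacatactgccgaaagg
All 300 bases of the *HOXB-AS1* window are inside the GENCODE gene, 50 of them in its exons, so the window is not upstream of the GENCODE start. It lies within an intron of *HOXB2* on the opposite strand, with 0 bases in exons of that gene, and holds 5 CG dinucleotides and 0 matches. The *HOXB1* window holds 11 CG dinucleotides and 1 match, TGATGGAT, at bases 126 to 133. The median over all 35116 windows was 14 CG dinucleotides, and 7.4% of them held the motif. Of the HOX members, 20 had a window in this table, with a median of 22 CG dinucleotides over 27 windows, and 3 of them (*HOXA2*, *HOXB1* and *HOXD11*, all with 0 reads) held the motif. A match is a description of these letters only.

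*HOXB-AS1* had 62.0, 39.1 and 35.7 normalized counts in DMSO at 24 hours, 52.2, 40.8 and 63.7 in DMSO at 48 hours, 13.4, 17.4 and 11 in AZD5153 at 24 hours and 14.6, 18.5 and 14.5 in AZD5153 at 48 hours. All 6 AZD5153 libraries were below all 6 DMSO libraries. The log2 fold change was -1.62 at 24 hours (SE 0.298, adjusted p = 0.00017 in limma) and -1.64 at 48 hours (SE 0.298, adjusted p = 0.00014 in limma), 3.08-fold and 3.12-fold lower. Without replicate 1 of DMSO the value at 24 hours was -1.38 (adjusted p = 0.0011 in limma), and without replicate 2 of AZD5153 the value at 48 hours was -1.75 (adjusted p = 0.000345 in limma). From 24 to 48 hours it was 0.21 in DMSO and 0.19 in AZD5153 (adjusted p = 0.62 and 0.68 in limma). Leaving out 1 library in turn gave ranges of 0.06 to 0.45 and 0.04 to 0.35, with 0.45 in DMSO without replicate 1 at 24 hours (adjusted p = 0.35 in limma) and 0.08 in AZD5153 without replicate 2 at 48 hours (adjusted p = 0.89 in limma). The difference of the AZD5153 effects, 48 minus 24 hours, was -0.02 (adjusted p = 0.97 in limma), and -0.26 and -0.13 without these libraries in the same order (adjusted p = 0.73 and 0.87 in limma).

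Most genes listed around the clusters were read where most HOX genes were not, although the closest ones often were not read either. The HOX genes span 107.1 kb of chromosome 7 (HOXA), 200.2 kb of chromosome 17 (HOXB), 117.2 kb of chromosome 12 (HOXC) and 98.2 kb of chromosome 2 (HOXD). Of 29 listed flanking genes, 23 reached a mean of 10 normalized counts, 5 of 6 at HOXA, 6 of 8 at HOXB, 5 of 7 at HOXC and 7 of 8 at HOXD. Beside this, 64% of the 19942 protein-coding genes reached it. The 6 at HOXB were at 187 to 1897 normalized counts per kilobase, above *HOXB2* at 96. Distances of genes are given from the middle of the cluster, negative toward lower coordinates. *EVX1* (100.1 kb) and *EVX2* (-61.1 kb), homeobox genes at the ends of HOXA and HOXD, had 0 reads. Beside HOXB, *SKAP1* (-346.8 kb) had 0 reads and *TTLL6* (161.1 kb) had 3 in all 12 libraries. *EVX1*, *TTLL6* and *EVX2* were the listed genes closest to their clusters, while at HOXC the closest listed gene was read.

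**Figure D4:**
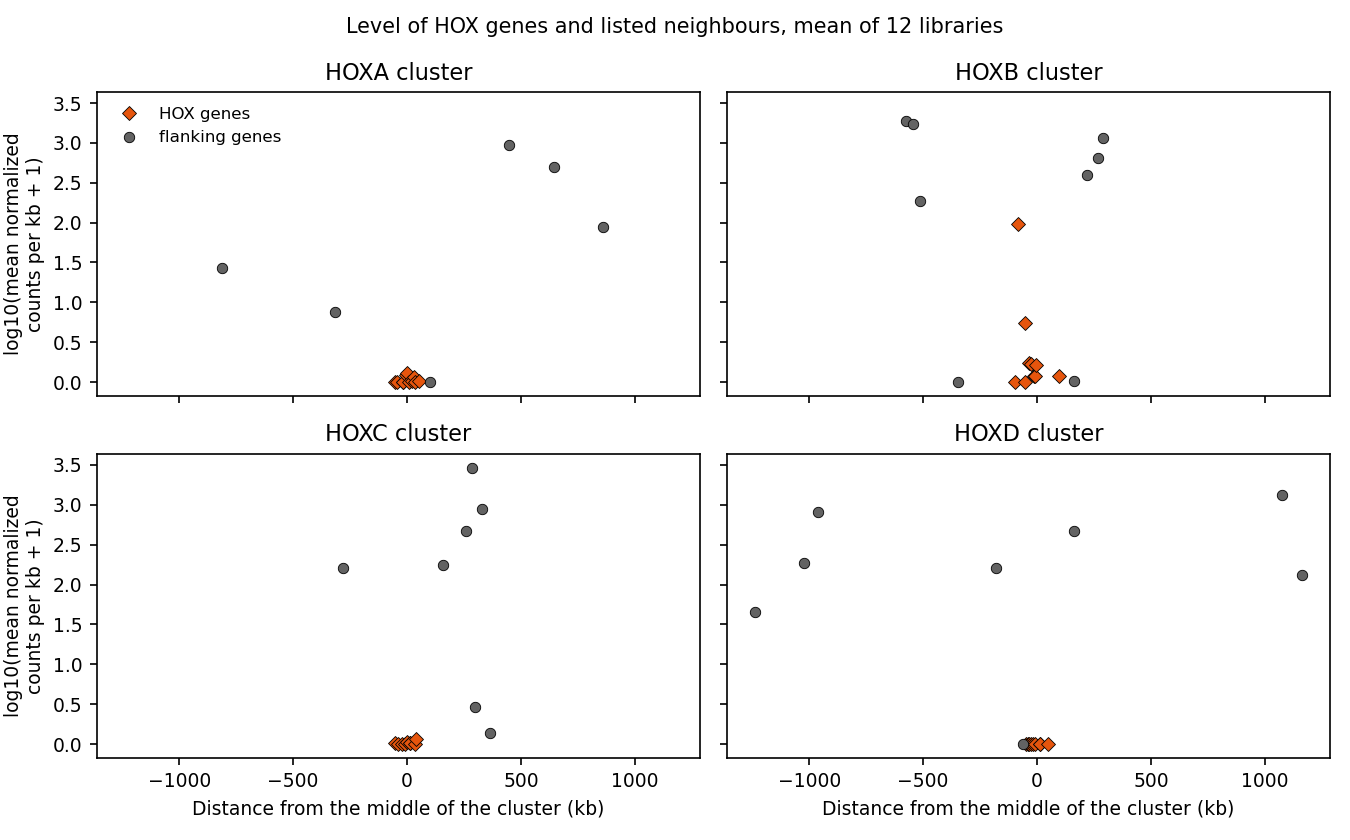
Mean level over the 12 libraries, as log10(normalized counts per kb + 1), of the 39 HOX genes (diamonds) and 29 flanking genes (circles) against the distance of each gene's middle from the middle of its cluster in kb. *HOXB2*, at 96 normalized counts per kb, and *HOXB3*, at 4.45, are the HOX genes that rise from the baseline.

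The flanking genes went in both directions with AZD5153. At 24 hours 10 of 23 were called higher and 12 lower, with a median log2 fold change of -0.26, and at 48 hours 10 were higher and 9 lower, with a median of -0.10, beside medians of 0.00037 and 0.0011 over all genes tested. Of all genes tested, 33.9% were called higher and 34.6% lower at 24 hours, and 33.1% higher and 33.9% lower at 48 hours, and the counts of the lists that follow are to be read against these shares. At HOXB, 4 of 6 were higher and 2 lower at 24 hours. *SNX11* (-515.2 kb), which encodes a sorting nexin, was the closest read gene of the list on the side of *HOXB2*. It had a log2 fold change of 0.41 at 24 hours (adjusted p = 0.0025 in limma). The changes of at least 1 on the log2 scale belonged to 1 listed gene of HOXD, 2 of HOXA and 1 of HOXC, all far from the cluster. They were *CHN1*, a GTPase-activating protein gene at -1239.7 kb from HOXD (-2.17 at 24 hours and -1.78 at 48 hours), *JAZF1* at 859.1 kb (-1.43 at 24 hours) and *SNX10* at -813.4 kb (-1.14 and -1.02) from HOXA, and *CALCOCO1* at -279.3 kb from HOXC (1.18 at 24 hours).

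Among 9 TALE cofactors of HOX proteins, all were read, and 5 were called lower and 1 higher at 24 hours and 5 lower and 2 higher at 48 hours, where 34.6% and 33.9% of all tested genes were lower and higher at 24 hours and 33.9% and 33.1% at 48 hours. The median log2 fold change was -0.37 at 24 hours and -0.97 at 48 hours. *PBX2* and *PBX3*, which encode direct DNA-binding partners of HOX proteins, were lower at both times. *PBX2* had 567.0, 628.5 and 680.2 normalized counts in DMSO and 175.6, 183.3 and 181.1 in AZD5153 at 24 hours, and 702.6, 712.8 and 630.6 against 153.2, 216.2 and 161.7 at 48 hours. Its log2 fold change was -1.79 at 24 hours (SE 0.120, adjusted p = 2.1e-09 in limma) and -1.95 at 48 hours (SE 0.120, adjusted p = 7.2e-10 in limma). *PBX3*, at 370 normalized counts per kilobase the most abundant of the cofactors named here, was at -1.25 and -0.97, and the effects of the 2 times differed by 0.29 (adjusted p = 0.036 in limma).

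The MEIS and PKNOX genes, whose products join PBX and HOX proteins on DNA, did not move as 1 group. *MEIS2* rose, with 1171.0, 1162.2 and 1139.1 normalized counts in DMSO and 2234.0, 2169.8 and 2269.1 in AZD5153 at 48 hours. Its log2 fold change was 0.26 at 24 hours and 0.94 at 48 hours (adjusted p = 0.001 and 6.6e-10 in limma), with a difference of 0.69 between times (adjusted p = 2.7e-05 in limma). *MEIS3* was lower at 48 hours (-1.80, adjusted p = 0.0002 in limma) and had a log2 fold change of -0.37 at 24 hours (adjusted p = 0.35), a difference of -1.44 (adjusted p = 0.039). With libraries scaled to equal totals, *MEIS2* was at 0.13 at 24 hours and not called (adjusted p = 0.0513 in limma). *PKNOX2* was lower at both times (-1.10 and -1.40), with overlap at 24 hours, where the call was lost in limma without replicate 2 of DMSO (-0.80, adjusted p = 0.0902) or replicate 1 or 3 of AZD5153 (adjusted p = 0.052 and 0.0606), and with only the compared groups fitted (adjusted p = 0.0615). *PKNOX1* was lower at 24 hours (-0.37) and higher at 48 hours (0.24). Its call at 48 hours was lost in limma with equal totals (0.07, adjusted p = 0.527) and without replicate 2 or 3 of DMSO or replicate 1 or 2 of AZD5153 at 48 hours (adjusted p = 0.104, 0.0708, 0.0522 and 0.0892). *MEIS1* and *PBX4*, with group means of at most 32.9 and 31.0 normalized counts, were not called at either time.

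**Figure D5:**
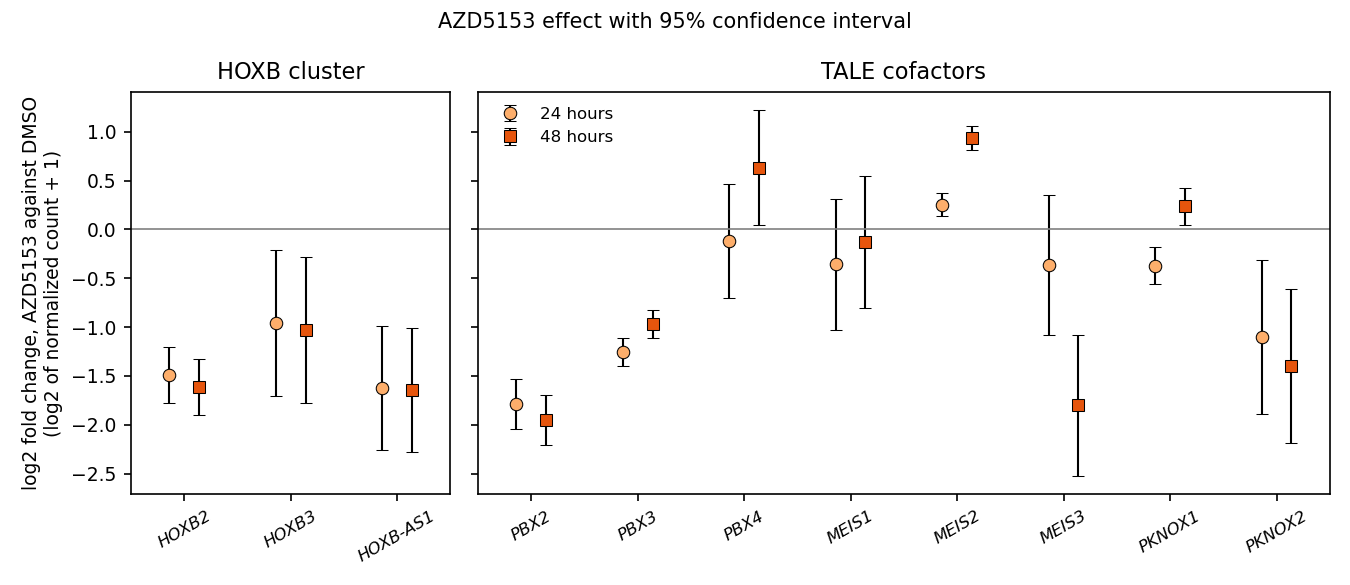
Log2 fold change of AZD5153 against DMSO with its 95% confidence interval at 24 hours (circles) and 48 hours (squares) for *HOXB2*, *HOXB3* and *HOXB-AS1* and for 8 TALE cofactors. *PBX2* and *PBX3* lie between -0.97 and -1.95, and *MEIS2* lies above 0 at both times.

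Of 18 listed retinoid and axial regulators of HOX genes, 7 were read, and 3 were called higher and 3 lower at 24 hours, 2 and 3 at 48 hours, beside 33.1% to 34.6% of all tested genes in each direction and time. The retinoic acid receptor genes *RARA* (-1.12 and -2.38 on the log2 scale at 24 and 48 hours) and *RARG* (-1.91 and -1.59) and the partner receptor gene *RXRA* (-0.81 and -1.64) were lower. *RARB*, itself a gene induced by retinoic acid, rose, with group means of 13 against 27.5 normalized counts at 24 hours and 25.7 against 79.6 at 48 hours (log2 fold change 1.00 and 1.58, adjusted p = 0.0076 and 0.00022 in limma). *GDF11*, a ligand that acts on posterior HOX genes in the embryo, rose by 2.18 and 1.95. *EGR2*, the hindbrain factor that acts on *HOXB2* and *HOXA2* in rhombomeres, had 6 to 22 reads per library and was not called (0.88 and -0.33, adjusted p = 0.073 and 0.49 in limma).

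The chromatin regulators of the clusters were all read, and their counts lie beside 33.9% higher and 34.6% lower of all tested genes at 24 hours and 33.1% and 33.9% at 48 hours. Of 12 Trithorax and MLL complex genes, 5 were called higher and 3 lower at 24 hours and 6 higher and 4 lower at 48 hours, with medians of 0.13 and 0.24. None reached a log2 fold change of 1 in size, but *DOT1L* came close at 48 hours (-0.996, adjusted p = 1.3e-06 in limma). At 24 hours *DOT1L* was at -0.078 (adjusted p = 0.57 in limma). Without replicate 1 of DMSO at 24 hours, 5 were lower at 24 hours. Of 12 genes of Polycomb repressive complex 1, 5 were higher and 5 lower at 24 hours and 2 and 3 at 48 hours. The 5 higher at 24 hours became 3 without replicate 1 or without replicate 2 of AZD5153 at 24 hours, and the 2 higher at 48 hours became 5 without replicate 1 and 4 without replicate 3 of DMSO at 24 hours. In this list *PCGF2*, a core subunit gene, was lower (-1.62 and -1.54). The 5 listed forebrain and midbrain-hindbrain homeobox genes were under the mean of 10 normalized counts, 3 of them with 0 reads.

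Markers of other cell types moved beside *HOXB2* and *HOXB3*. All 6 mesenchymal genes, among them *COL1A1*, *COL1A2* and *PDGFRB*, were called lower at both times. Their summed normalized counts were 61187 to 76403 in DMSO and 19286 to 20029 in AZD5153 at 24 hours, and 82087 to 88313 against 25420 to 25594 at 48 hours, and none of the 6 was at 0 in all libraries, although *COL3A1* had 0 reads in 3 of the 6 AZD5153 libraries. Both tested endothelial genes of 3 (*PECAM1* and *VWF*) and the single tested myeloid gene of 4 (*CSF1R*) were lower too, while *CDH5* and *AIF1* of these lists had 0 reads. Endothelial sums were 324 to 379 against 55.1 to 67 at 24 hours and 596 to 636 against 50 to 62.9 at 48 hours, and myeloid sums were 178 to 211 against 25.7 to 37.5 and 177 to 213 against 29.1 to 46.7. Of 8 tested glial progenitor genes, 2 were higher and 4 lower at 24 hours, and their sums were 24187 to 32394 against 19467 to 21237. At 48 hours 2 were higher and 3 lower, with sums of 20320 to 21083 against 16291 to 17865. Most of these sums was *VIM*, with means of 22869 against 18551 at 24 hours and 15327 against 15450 at 48 hours. At 48 hours *NES* was at 1993 against 544 and *CSPG4* at 2933 against 864, while *BCAN* rose from 32.3 to 125. Of 3 tested neuron genes, 1 (*TUBB3*) was higher and 1 (*SNAP25*) lower at either time, with sums of 715 to 866 against 1127 to 1267 at 24 hours and 721 to 903 against 1080 to 1189 at 48 hours. The rise of these sums was mostly that of *TUBB3*, with means of 22.6 against 402 at 24 hours and 19.3 against 291 at 48 hours. *SYT1*, the most abundant of the list, was at 749 against 801 and 723 against 825. The part of such markers in the values of the HOX genes was not tested.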

How the data were processed

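RNA-Seq was measured in 12 libraries of SF8628 cells, mapped to the 4 groups by their labels. The authors sequenced paired ends of 150 bases, used STAR for alignment to hg38 and HTSeq-count for counting, and normalized with DESeq2. Versions, annotation and strand setting are not given in the sources used here. The deposited values are of the kind signal (counts of a gene over the size factor of its library), and 100% of them were whole multiples of 1 step (tolerance 0.01 reads), so that reads were recovered. The same table holds log2 fold changes, p-values and further columns of the authors' own comparison, which were not used. Of 60664 genes, 60463 had a symbol in GENCODE 44, whose positions (GRCh38) and exon lengths were used.

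The 15599 genes whose mean reached 10 normalized counts were tested on log2(normalized count + 1), a scale that understates changes of low genes, with limma 3.58.1 (lmFit, eBayes with trend, R 4.3.3) in 1 fit of the 4 groups, with Benjamini-Hochberg adjustment at 0.05. The edgeR 4.0.16 quasi-likelihood test and DESeq2 1.42.0 on recovered reads were alternatives, as were the pseudocount, the minimum mean, the scaling, a replicate block and leaving out each library. The fits were tested on simulated data. Replicate pairs differed beyond sampling noise (chi-square per degree of freedom 2.117 to 25.577). The members and gene lists were chosen with earlier results of these data known. Named were HOX genes that reached the minimum, the further genes listed within the clusters that did so, marker genes, and list genes called with a log2 fold change of at least 1 at either time. *MEIS2*, *PKNOX1*, *MEIS1*, *PBX4*, *EGR2*, *SNX11*, *DOT1L*, *CBX8* and *RXRB*, the unread genes given by name and the genes leading in replicate 2 of AZD5153 at 48 hours were added after their values were seen. No per-sample column was left out. Some genes of these lists are not reported here.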

Additional observations from a re-analysis of the deposited data

How the results depend on the processing

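The counts of called HOX genes (2 of 2 lower at 24 hours and at 48 hours, 0 for the difference between times, 1 from 24 to 48 hours in DMSO and 0 in AZD5153) moved only through *HOXB3*. At 24 hours the count was 1 with no minimum mean (*HOXB3*, adjusted p = 0.0574 in limma) and 1 with a minimum of 100, which removes *HOXB3* from the test. At 48 hours it was 1 with a minimum of 100 and 1 under quantile normalization. From 24 to 48 hours in DMSO it was 0 with no minimum (adjusted p = 0.0788 in limma), 0 with a minimum of 100 and 0 under quantile normalization, and in AZD5153 it was 1 in DESeq2. Leaving out 1 library gave 1 to 2 called at 24 hours, 1 to 2 at 48 hours, 0 to 1 in DMSO over time, 0 to 1 in AZD5153 over time and 0 for the difference. Except for the minimum of 100, the cause was not tested.

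*HOXB2* and *HOXB-AS1* stayed lower and called at both times in all alternatives run. *HOXB2* ranged from -1.61 to -1.28 at 24 hours and -1.79 to -1.38 at 48 hours, and without 1 library from -1.64 to -1.37 and -1.64 to -1.58. Signs turned in contrasts that were not called. The difference between times was 0.19 for *HOXB3* and 0.20 for *HOXB-AS1* under quantile normalization, where *HOXB-AS1* was at -0.004 from 24 to 48 hours in DMSO. Without 1 library the difference ran from -0.24 to 0.028 for *HOXB2*, -0.42 to 0.30 for *HOXB3* and -0.26 to 0.14 for *HOXB-AS1*, and the change of *HOXB2* in AZD5153 over time from -0.17 to 0.11. Scaling to equal totals moved the median of all genes by -0.12 at 24 hours and -0.17 at 48 hours, and *HOXB2* was then at -1.61 and -1.79. It left 0 TALE cofactors higher at 24 hours and 1 at 48 hours, 2 Trithorax genes higher at 24 hours, and 2 genes of Polycomb repressive complex 1 higher at 24 hours and 5 lower at 48 hours. With only the groups compared in the fit, 3 Trithorax genes were higher at 24 hours, and 3 genes of Polycomb repressive complex 1 were higher at 24 hours and 5 at 48 hours. The latter list had 3 higher at 24 hours with eBayes without a trend and 4 higher at 48 hours under quantile normalization.

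The replicate numbers did not pair the libraries. Over 18 pairs with the same number the correlation of deviations from the group means was -0.151 to 0.036, and 4 of 12 libraries correlated best with their own number. With the replicate number as a block the counts of called HOX genes were 2, 2, 0, 1 and 0, with *HOXB2* at -1.49 and -1.62 and *HOXB3* at -0.96 and -1.03. Depth limits the unread members, since 3 reads are 2.14 to 4.02 normalized counts per library.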

Other observations

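Replicate 2 of AZD5153 at 48 hours held reads of 18 HOX genes where each other library held reads of 2. With genes of the Y chromosome and *XIST* left out, it had 15 genes with at least 10 reads that had none in the other 11 libraries, against 0 or 1 such genes in each other library. Besides the genes named above, *MAGEA4* (35 reads), *KIF1A* (31), *DSP* (16) and *ESRP1* (16), a splicing regulator of epithelial cells, were seen in this library alone. These genes were chosen after their values were seen.

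The ratio of *HOXB2* to *HOXB-AS1* in normalized counts ran from 4.98 to 9.62 in DMSO at 24 hours, 5.98 to 8.5 in DMSO at 48 hours, 6.59 to 11.2 in AZD5153 at 24 hours and 6.41 to 8.35 in AZD5153 at 48 hours, so that the ranges of the 4 groups overlapped while both genes were lower in all 6 AZD5153 libraries.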
